A study of Mus musculus with 63 samples.

Results

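The late activity-regulated effector genes described here were 10 genes chosen by symbol, namely Bdnf, Homer1, Inhba, Nrn1, Ptgs2, Rasgrp1, Gadd45b, Per1, Sik1 and Dusp1. All 10 were found among the 20183 genes of the deposited table. Single somata were drawn by pipette from the upper cortical layers (layer 2/3) of V1, the primary visual cortex, in wild-type C57BL/6 mice aged 70 days, and each was sequenced with Smart-seq2, a method that copies the full-length mRNA of 1 cell into cDNA. Before its soma was taken, each neuron was put into the light-sensitive group (LS) if its calcium signal rose in most repeats of a drifting grating, and into the non-light-sensitive group (NS) if it rose in at most 1, so that a cell in between fell in neither group. The same grating was shown before cells of either group were taken, under light anaesthesia. The table holds 46 LS and 17 NS cells, of which 35 LS and 12 NS cells passed the quality filters and are used below unless stated otherwise. The filter on low cDNA removed LS_1 and NS_1, which were identified from a plot of the study and not by its text, so values that change by over 1.5 times when they are kept, with 36 LS and 13 NS cells, are also given.

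Neuronal activity reaches the nucleus through calcium, and the kinases that calcium switches on phosphorylate factors such as CREB, which sit on promoters before any stimulus. A first wave of immediate-early genes such as Fos then encodes transcription factors, and effector genes encode secreted factors, synaptic proteins and regulators that act on the cell or its partners. Some of the 10 genes are themselves transcribed at once, before new protein is made, and others follow later. In cortex many of the secreted and synaptic effectors are known mainly from excitatory, glutamatergic neurons.

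The labels name no mouse for a cell, so each group counts as 1 sample. LS and NS were therefore not tested against each other, and an SD over cells describes only their spread. Levels are FPKM (fragments per kilobase of exon per 1000000 reads), which are scaled for gene length and can be compared between genes. Reads summed over the genes of the table were 366183 to 2511960 in an LS cell, 874418 in the median one, and 148588 to 880461 in an NS cell, 315708 in the median one. Reads carry no molecular identifiers, so an interval on reads covers counting error only. An interval on a share of cells treats cells as independent draws, although their mice are not known, and is only a description.

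By marker genes the groups also differed in makeup. By their summed FPKM of Slc17a7 and Neurod2 against Gad1 and Gad2, 30 of 35 LS cells were glutamatergic-marked, 4 were GABAergic-marked and 1 had neither, whereas of the 12 NS cells 2 were glutamatergic-marked, 6 were GABAergic-marked and 4 had neither. The summed level of 5 excitatory markers ranged from 28.7 to 1392 FPKM in LS cells with a median of 741, and from 0 to 3318 in NS cells with a median of 208, with Neurod6 listed at 0 in every NS cell. That of 5 inhibitory markers had a median of 1.92 FPKM in LS and 40.1 in NS cells. The study instead mapped its cells to a published dataset, and it placed similar shares of its LS and NS cells in excitatory clusters. As an index of background signal served 1031 receptor genes of smell and taste (odorant, vomeronasal and taste receptors) that cortical neurons should not use, and 31 of 35 LS cells but 3 of 12 NS cells lay under an index of 10%. Markers of other cells were present in both groups. The median summed level of 5 astrocyte markers was 53.5 FPKM in LS and 50.9 in NS cells, that of 5 microglia markers 263 and 554, that of 5 oligodendrocyte markers 8.53 and 1.68, and that of 5 endothelium markers 0 and 0.770. The part of depth, makeup and background in the differences between LS and NS cells below was not tested.

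Promoter windows of RefSeq for GRCm38.p6, each of 250 bases before and 50 after a start of transcription, were given for 8 of the 10 genes, in 16 windows, 7 of them of Bdnf. They were searched on both strands for the CRE (TGACGTCA), the site that CREB binds, for its core (TGACG or CGTCA), for the AP-1 site that Fos and Jun proteins bind (TGANTCA) and for the CArG box of serum response factor. The core also lies inside each CRE. Dusp1 was the only one of these 8 genes with a full CRE, 143 bases before its start, and 1.79% of all 32851 windows hold one. The core lay in 6 of the 16 windows, which belong to 5 genes, against 20.8% of all windows. An AP-1 site lay in 1 window of Bdnf, against 7.81% of all windows, and no window of these 8 genes held a CArG box, which 1.63% of all windows hold. The stretches below are shown because Dusp1 was the gene that followed Fos most closely, while Homer1, Bdnf and Per1 also hold the core and did not rise with Fos. Fos is added for comparison. Capitals mark the CRE or its core, and all bases lie upstream of the start.
Dusp1, chr17:26508573-26508672, minus strand: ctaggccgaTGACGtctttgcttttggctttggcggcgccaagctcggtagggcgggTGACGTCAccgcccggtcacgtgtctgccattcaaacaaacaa
Homer1, chr13:93303657-93303756, plus strand: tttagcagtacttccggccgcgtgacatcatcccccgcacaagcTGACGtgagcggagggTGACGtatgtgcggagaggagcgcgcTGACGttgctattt
Bdnf, chr2:109692336-109692435, plus strand: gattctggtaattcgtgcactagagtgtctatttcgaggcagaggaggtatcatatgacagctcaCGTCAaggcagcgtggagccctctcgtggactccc
Per1, chr11:69099952-69100051, plus strand: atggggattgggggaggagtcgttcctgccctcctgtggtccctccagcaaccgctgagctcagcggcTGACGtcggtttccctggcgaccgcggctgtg
Fos, chr12:85473740-85473859, plus strand: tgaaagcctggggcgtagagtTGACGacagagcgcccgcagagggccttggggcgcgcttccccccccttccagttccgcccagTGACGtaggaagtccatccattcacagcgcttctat
The Homer1 stretch holds 3 cores and the Fos stretch 2. A match gives letters in a window and no evidence of binding.

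The mean level of 9 of the 10 genes was higher in LS than in NS cells, where 47.1% of all 16760 genes with a mean of at least 1 FPKM in either group were higher in LS. At least 2-fold higher in LS were 8 of the 10, against 33.8% of all genes, a share that is 32.2% when genes at 0 in every NS cell are held to a floor of 3 reads over the NS cells. The median log2 ratio of LS to NS was 1.76 over the 10 genes and -0.36 over the 14473 genes with a value in both groups. Most of these ratios rested on few cells. The median of the 10 fell to 1.17 without the cell LS_3, and it was 2.83 without NS_7 and 2.56 without NS_8. When only glutamatergic-marked cells were compared, 30 LS against 2 NS, the median was 1.47 and 6 genes were at least 2-fold higher, against 38.4% of all 15673 genes in that comparison. Of the 6, Homer1 and Nrn1 had no read in either NS cell and were counted at the floor of 3 reads, as were other such genes. The 2 NS cells of that comparison, NS_8 and NS_9, had a receptor index of 120% and 51.6%, above the limit of 10%.

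**Figure D1:**
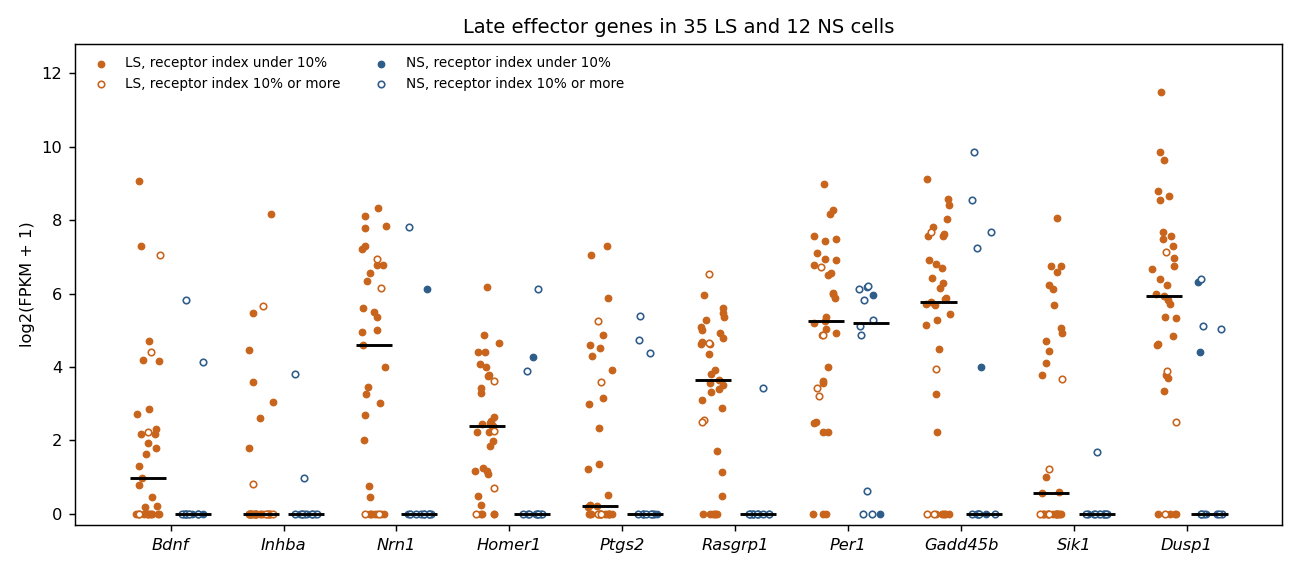
Level of each gene in each cell, as log2(FPKM + 1) on the vertical axis, for 35 LS cells (orange) and 12 NS cells (blue), with open points for cells whose receptor index was 10% or more and bars at the medians. The NS median lies at 0 for every gene but Per1. The NS values above 0 come mostly from open points, but all NS cells except 3 of the 12 are open.

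Bdnf, Inhba and Nrn1 encode proteins that act outside the cell. Bdnf (Ensembl ENSMUSG00000048482, GRCm38 chr2:109674700-109727007, plus strand) encodes brain-derived neurotrophic factor, the ligand of the receptor TrkB, and its row sums the exons of all its transcripts. Its level in LS cells ran from 0 over a median of 0.952 to 536 FPKM, and in NS cells from 0 over a median of 0 to 55.7 FPKM. The means were 26.8 ± 94.7 (SD, 35 LS cells) and 6.02 ± 16.3 FPKM (SD, 12 NS cells), a 4.46-fold ratio. A single cell, LS_3, held 57.1% of the summed LS level, and 3 LS cells exceeded the highest NS cell. Without LS_3 the ratio was 1.97-fold, and without NS_8, the higher of the 2 NS cells with a read, it was 17.9-fold. Over all 63 cells it was 2.86-fold. In glutamatergic-marked cells it was 1.12-fold, under the 2-fold limit, since the 30 LS cells averaged 31.3 FPKM and the 2 NS cells 27.8 FPKM.

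Inhba (chr13:16011851-16031621, plus strand) encodes the beta-A subunit of activin, a ligand of the TGF-beta family. Its LS level ran from 0 over a median of 0 to 287 FPKM, and its NS level from 0 over a median of 0 to 13.1 FPKM. The gene was thus not detected at this depth in most cells of both groups, with a read in 9 of 35 LS and 2 of 12 NS cells. The means were 12.2 ± 49.2 and 1.17 ± 3.78 FPKM, a ratio of 10.4-fold that was 3.54-fold without LS_31, which held 67.0% of the LS level, and 140-fold without NS_9. It was 2.18-fold in glutamatergic-marked cells and 16.2-fold over all 63 cells.

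Nrn1 (chr13:36725361-36735131, minus strand) encodes neuritin, a small membrane-anchored protein that promotes neurite growth and synapse stability. Its level spread more evenly over the LS cells, from 0 over a median of 23.4 to 323 FPKM, and the top cell held 14.7% of the sum. Of the 12 NS cells 10 were listed at 0, and the highest, NS_7, was at 224 FPKM. The means of 62.9 ± 86.7 and 24.4 ± 66.0 FPKM gave a 2.58-fold ratio, which was 10.1-fold without NS_7. NS_7 was GABAergic-marked and had a receptor index of 102%.

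Homer1, Ptgs2 and Rasgrp1 act at the synapse or in signalling inside the cell. Homer1 (chr13:93299635-93405129, plus strand) encodes scaffold proteins that link metabotropic glutamate receptors to calcium stores, and a short form induced by activity loosens that link. The gene row adds the long and short forms, which cannot be told apart here. Its LS level ran from 0 over a median of 4.28 to 71.0 FPKM, and its NS level from 0 over a median of 0 to 69.2 FPKM. The means of 8.59 ± 13.2 and 8.44 ± 20.1 FPKM were nearly equal, at 1.02-fold. Yet 30 of 35 LS cells and 3 of 12 NS cells held a read. NS_15, with 192562 reads and the highest receptor index, 217%, held 68.3% of the NS level, and without it the ratio was 2.94-fold.

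Ptgs2 (chr1:150100031-150108227, plus strand) encodes cyclooxygenase-2, which makes prostaglandins and in cortex is found in excitatory neurons. Its LS level ran from 0 over a median of 0.166 to 155 FPKM, and its NS level from 0 over a median of 0 to 41.1 FPKM. The ratio of the means, 14.9 ± 34.8 to 7.21 ± 13.9 FPKM, was 2.07-fold and stood at the edge of the 2-fold limit, since leaving out any 1 of 13 of the 47 cells took it below. It was 1.501-fold without LS_3, 1.59-fold without LS_28 and 3.62-fold without NS_8. In glutamatergic-marked cells alone Ptgs2 was lower in LS, with means of 17.4 FPKM over 30 LS cells and 33.4 FPKM over 2 NS cells.

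Rasgrp1 (chr2:117279993-117343001, minus strand) encodes an exchange factor that loads Ras with GTP in response to calcium and diacylglycerol. It separated the groups by number of cells rather than by a few high ones. Its LS level ran from 0 over a median of 11.5 to 91.0 FPKM, while 11 of 12 NS cells were listed at 0 and the remaining one, NS_8, was at 9.76 FPKM. Of the 35 LS cells 20 exceeded NS_8. The means were 18.96 ± 20.3 and 0.813 ± 2.82 FPKM, a 23.3-fold ratio that rested on 18 NS reads (95% exact Poisson interval 10.7 to 28.4). The ratio was 4.43-fold in glutamatergic-marked cells and 4.84-fold over all 63 cells, which include NS_17 at 46.5 FPKM. Without NS_8 no NS read remained, and in pooled reads LS was at least 158-fold higher against a floor of 3 reads over the group.

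Per1, Gadd45b, Sik1 and Dusp1 encode regulators that many cell types induce. Per1 (chr11:69095217-69109960, plus strand) encodes a repressor of the circadian clock and is also induced through CREB. It was the member seen in most cells of either group, with a read in 32 of 35 LS and 9 of 12 NS cells. Its level ran from 0 over a median of 37.1 to 502 FPKM in LS and from 0 over a median of 35.9 to 73.5 FPKM in NS cells. The medians were thus close, and the 2.30-fold ratio of the means, 82.8 ± 108 to 35.98 ± 30.2 FPKM, stood beside 13 LS cells above the highest NS cell. Without LS_34 it was 1.96-fold, in glutamatergic-marked cells 1.88-fold, and in cells of a receptor index under 10% 1.99-fold.

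Gadd45b (chr10:80930073-80932204, plus strand) encodes a stress-response protein linked to demethylation of DNA at the promoters of growth factor genes. It was the member with a higher mean in NS, 139 ± 274 against 101.1 ± 128 FPKM in LS, a 0.727-fold ratio of LS to NS. Its median went the other way, with 54.1 FPKM in LS cells, which reached 553, and 0 in NS cells, which reached 923. NS_9 held 55.3% of the NS level, and without it the ratio was 1.49-fold. The direction depended on scale and cells, since LS was higher by 1.76 for means of log2(FPKM + 1), by 2.92 for means of log2(FPKM + 0.1), and 21.3-fold in cells of a receptor index under 10%, where the 31 LS cells averaged 107 FPKM and the 3 NS cells 5.03 FPKM. The ratio was 0.474-fold over all 63 cells and 0.369-fold with LS_1 and NS_1 kept. In glutamatergic-marked cells the means were 96.4 FPKM in 30 LS cells and 563 in 2 NS cells, NS_8 and NS_9. The receptor index of these 2 was 120% and 51.6%.

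Sik1 (chr17:31844250-31855804, minus strand) encodes a salt-inducible kinase that restrains the coactivators of CREB. Its LS level ran from 0 over a median of 0.473 to 267 FPKM, and 14 of 35 LS cells exceeded the only NS cell with a read, NS_9 at 2.22 FPKM. The means of 26.4 ± 53.0 and 0.185 ± 0.640 FPKM gave a 143-fold ratio, on 8209 LS reads and 5 NS reads (95% exact Poisson interval 1.62 to 11.7). It was 26.9-fold in glutamatergic-marked cells, 37.8-fold over all 63 cells and 24.1-fold with LS_1 and NS_1 kept, NS_1 being at 11.6 FPKM. Without NS_9 no NS read remained, and in pooled reads LS was at least 307-fold higher against the floor of 3 reads over the group.

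Dusp1 (chr17:26505590-26562128, minus strand) encodes a phosphatase that switches off MAP kinases, a brake on the pathway that induces it. It had the highest mean LS level of the 10 genes. The level ran from 0 over a median of 60.5 to 2894 FPKM in LS and from 0 over a median of 0 to 83.1 FPKM in NS cells, and 15 LS cells exceeded the highest NS cell. The means were 218 ± 512 and 20.6 ± 31.01 FPKM, a ratio of 10.6-fold that was 6.74-fold without LS_18, the top LS cell. It was 3.53-fold in glutamatergic-marked cells, 2.77-fold over all 63 cells and 3.06-fold with LS_1 and NS_1 kept, NS_1 being at 678 FPKM. By mean LS level the order was Dusp1, Gadd45b, Per1, Nrn1, Bdnf, Sik1, Rasgrp1, Ptgs2, Inhba and Homer1, and between each pair of neighbours the difference was smaller than the SD over cells of either gene.

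All 10 genes had a read in a larger share of LS than of NS cells. Of all genes 71.3% did so as well, which is a high background at the greater depth of the LS cells. The shares were farthest apart for Rasgrp1, at 82.9% in LS (66.4 to 93.4, an exact binomial interval at 95%) and 8.33% in NS (0.211 to 38.5). They were 85.7% (69.7 to 95.2) and 25% (5.49 to 57.2) for Homer1, and 74.3% (56.7 to 87.5) and 16.7% (2.09 to 48.4) for Nrn1. The intervals overlapped widely for Inhba, at 25.7% (12.5 to 43.3) and 16.7% (2.09 to 48.4), and for Per1, at 91.4% (76.9 to 98.2) and 75% (42.8 to 94.5). Those of Bdnf, Ptgs2, Gadd45b, Sik1 and Dusp1 also overlapped.

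At an equal depth of 200000 reads, which 35 LS and 8 NS cells reached, all 10 shares were still larger in LS, as were those of 67.6% of all genes. Before thinning the same cells gave 70.8% of all genes. The expected shares were then 80.7% and 12.5% for Rasgrp1, 82.2% and 12.5% for Homer1, 68.7% and 12.5% for Nrn1, and 55.0% and 12.5% for Bdnf. For Inhba they were 22.9% and 17.5%, and in the same cells before thinning 25.7% and 25%. Among the 8 NS cells Dusp1 reached 62.5%, against 85.7% of LS cells, and Fos itself 84.8%, against 83.7%. With glutamatergic-marked cells alone, 5 of the 10 genes had the larger share in LS, against 47% of all genes, but there only 2 NS cells remain. A single LS cell held reads of 1 to 10 of the 10 genes with a median of 7, and a single NS cell of 0 to 6 with a median of 2.5. At 200000 reads the expected medians were 6.98 in LS and 2.20 in NS cells.

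**Figure D2:**
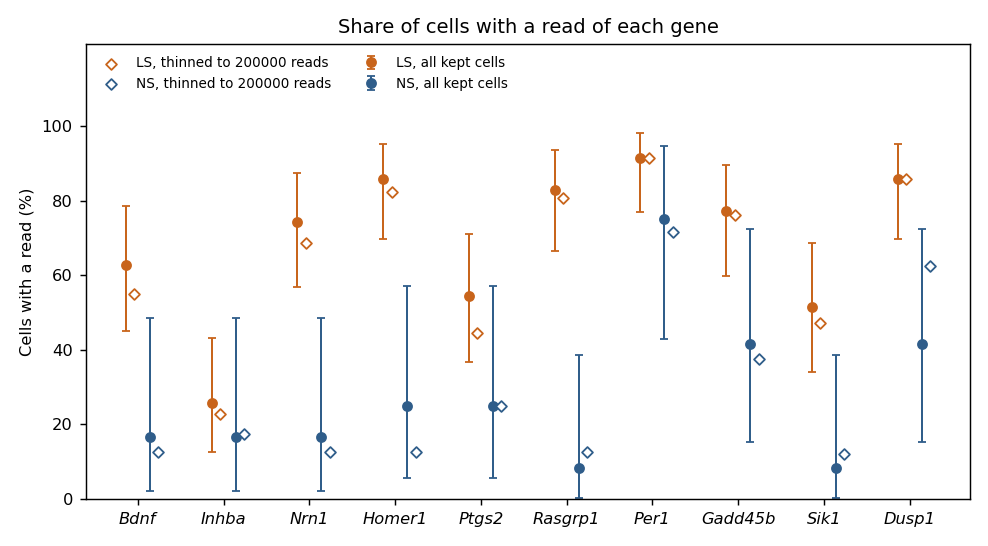
Percentage of cells with a read of each gene, for 35 LS cells (orange) and 12 NS cells (blue), with 95% exact binomial intervals, and as open diamonds the expected percentage at 200000 reads per cell in 35 LS and 8 NS cells. Rasgrp1, Homer1 and Nrn1 show the widest gaps, and Inhba and Per1 the smallest.

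Within the LS group several of the 10 genes were at or near 0 in GABAergic-marked cells. In the 4 GABAergic-marked LS cells Inhba, Nrn1 and Ptgs2 were listed at 0 throughout, Bdnf reached at most 0.158 FPKM and Homer1 at most 0.629 FPKM. In the 30 glutamatergic-marked LS cells Nrn1 had a read in 26, Homer1 in 27, Rasgrp1 in 27, Bdnf in 21, Ptgs2 in 19 and Inhba in 9. Per1 was read in all 30, at 3.66 to 502 FPKM, and in 2 of the 4 GABAergic-marked LS cells, at most at 28.2 FPKM. Dusp1 and Gadd45b were found in both classes. Dusp1 had a read in 26 of 30 glutamatergic-marked cells with a median of 58.3 FPKM, and in 3 of 4 GABAergic-marked cells with a median of 123 FPKM. Gadd45b had a read in 24 of 30 and in 3 of 4, with medians of 57.6 and 46.3 FPKM. Sik1 had a read in 16 of 30 and in 2 of 4, with medians of 0.489 and 5.86 FPKM. Rasgrp1 had a read in 2 of the 4 GABAergic-marked LS cells, at most at 9.64 FPKM. With 4 cells in the smaller class, whose mice are not known, these are values of single cells. LS_1, left out for its low cDNA, was also GABAergic-marked and held Nrn1 at 301 FPKM. Among the 6 GABAergic-marked NS cells Nrn1 reached 224 FPKM, Ptgs2 19.7, Bdnf 16.5 and Inhba 0.965, each with a read in 1 cell. Homer1 reached 18.2 FPKM there, with a read in 2 of the 6.

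Fos, the reference for activity within the LS group, encodes a subunit of the AP-1 transcription factor. It ran from 0 over a median of 152 to 12613 FPKM in LS cells, where it had a read in 30 of 35, and from 0 over a median of 39.8 to 503 FPKM in NS cells. The 2 highest LS cells, LS_39 at 12613 and LS_15 at 6175 FPKM, were both GABAergic-marked. Fos was nearly unrelated to depth, with a Spearman rho of 0.12 with reads and 0.10 with the number of genes above 1 FPKM. All correlations below are over cells of unknown mice and are given without a p-value.

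Across 35 LS cells the 10 genes did not follow Fos as a group. Their median rho with Fos was -0.01, and the median over all 10212 genes that were read in 25% or more of the LS cells was -0.02. A rho of at least 0.3 was reached by 2 of the 10, Dusp1 and Gadd45b, against 8.79% of all genes, and a rho of at most -0.3 by 3, Nrn1, Rasgrp1 and Homer1, against 10.2% of all genes. In glutamatergic-marked LS cells alone the median was 0.17.

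**Figure D3:**
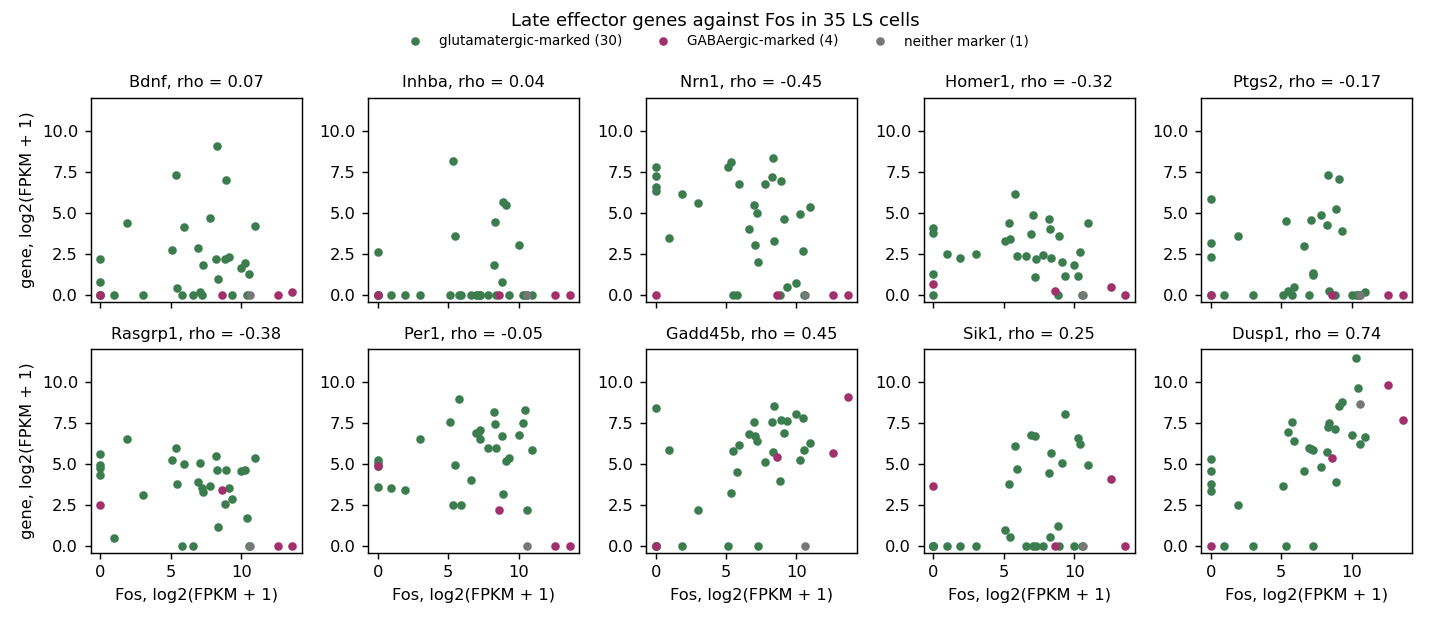
Level of each gene against that of Fos, both as log2(FPKM + 1), in 35 LS cells, with a point per cell coloured by marker class and the Spearman rho above each panel. Dusp1 (rho 0.74) and Gadd45b (0.45) rise to the right, Nrn1 (-0.45) and Rasgrp1 (-0.38) fall, and Bdnf and Inhba show no slope.

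Dusp1 followed Fos closely. Its rho with Fos was 0.74, and its Pearson r on log2(FPKM + 1) was 0.67. Of the 10212 genes it ranked 7, and without LS_39 and LS_15, the cells farthest from the Fos median, rho was 0.70 and r 0.64 over 33 cells. Over the 30 glutamatergic-marked cells rho was 0.66. On linear FPKM r was 0.19, a scale on which LS_39 held 39.3% of the summed Fos level and LS_18 37.9% of the summed Dusp1 level. The genes most like Dusp1 over the LS cells, among 6122 genes read in 50% or more of them, were Klf6 (rho 0.75), Fos (0.74) and Ier2 (0.71), of which Klf6 and Ier2 are also rapid-response genes.

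Gadd45b had a rho of 0.45 with Fos and an r of 0.55 on log2(FPKM + 1), with a rank of 272 among the 10212 genes. Both stayed near that without the 2 extreme cells, at 0.43 and 0.52. Of the 5 LS cells in which Fos was listed at 0, Gadd45b was at 341 FPKM in LS_26 and at 0 in the other 4. Its level also moved with astrocyte markers, with a rho of 0.31 with their sum, and the rho of Fos with that sum was 0.31. Of these markers Fos had a rho of 0.48 with Slc1a3 and 0.32 with Aqp4. It was -0.03 with Gfap, 0.04 with S100b and 0 with Aldh1l1. With a partial rho given astrocyte and endothelium markers the value for Gadd45b was 0.42. Microglia markers were not part of it, and their sum had a rho of 0.27 with Gadd45b and 0.24 with Fos.

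Sik1 had a rho of 0.25 with Fos over all LS cells and 0.43 over glutamatergic-marked ones. It had a read in 18 of 35 LS cells, so its ranks hold many ties at 0. Its rho with the number of genes above 1 FPKM was 0.38, larger than that with Fos. Per1 went from -0.05 over all LS cells to 0.28 over glutamatergic-marked ones, and the 2 GABAergic-marked cells with the most Fos held no Per1 read. Its rho with the astrocyte marker sum was -0.58.

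Nrn1 had the lowest rho of the 10 genes with Fos, -0.45, with an r of -0.42 on log2(FPKM + 1), and it ranked 257 from the bottom of the 10212 genes. Of the 5 LS cells in which Fos was listed at 0, the 4 glutamatergic-marked ones had Nrn1 at 227, 155, 94.1 and 80.7 FPKM. Among glutamatergic-marked cells rho was -0.42, and without LS_39 and LS_15 it was -0.38. Rasgrp1 had a rho of -0.38, which was -0.28 in glutamatergic-marked cells, and Homer1 one of -0.32, which was -0.20 there. Without the 2 extreme cells these were -0.27 and -0.21. Both genes were also related to the astrocyte marker sum, with a rho of -0.38 for Rasgrp1 and -0.41 for Homer1. Given astrocyte and endothelium markers, their partial rho with Fos was -0.35 and -0.27.

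The summed excitatory markers were related to Fos and to Nrn1. Their rho with Fos was -0.55 over the LS cells, and -0.52 among the glutamatergic-marked ones, and their rho with Nrn1 was 0.45. With a partial rho given those markers, Nrn1 stood at -0.30, Rasgrp1 at -0.20, Homer1 at -0.11 and Dusp1 at 0.72. The choice of Fos also mattered. Against the mean log2 level of Junb, Egr1, Nr4a1 and Arc in place of Fos, rho was -0.05 for Nrn1, -0.08 for Rasgrp1 and 0.00 for Homer1, while it was 0.57 for Dusp1, 0.52 for Gadd45b, 0.34 for Sik1 and 0.33 for Bdnf.

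Bdnf, Inhba and Ptgs2 showed little relation to Fos, with a rho of 0.07, 0.04 and -0.17. The 3 LS cells with the most Bdnf had neither the lowest nor the highest Fos. LS_3 with 536 FPKM of Bdnf had 315 FPKM of Fos, LS_31 with 155 had 39.96, and LS_30 with 130.5 had 475. All 3 genes rose with the number of genes above 1 FPKM, at a rho of 0.40 for Bdnf, 0.32 for Inhba and 0.33 for Ptgs2. They did not rise with reads, where rho was -0.29, -0.21 and -0.04.

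**Figure D4:**
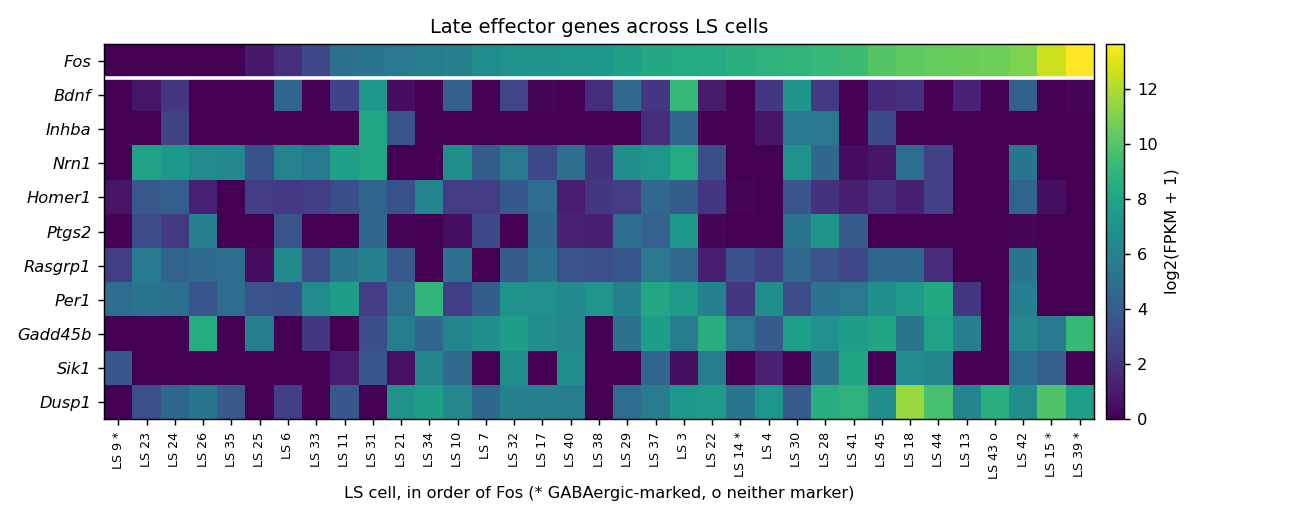
Level of Fos and of the 10 genes, as log2(FPKM + 1) by colour, in each of the 35 LS cells, ordered from left to right by Fos. Dusp1 brightens to the right with Fos, whereas Nrn1 and Rasgrp1 are bright over the left and middle and dark in most of the cells at the right end.

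Among themselves the 10 genes fell along 2 patterns over the LS cells, described after the values were seen. Bdnf, Inhba, Nrn1, Homer1, Ptgs2 and Rasgrp1 were positively related in all 15 pairs, with rho from 0.27 to 0.76 and a median of 0.48. The closest pair was Nrn1 and Rasgrp1 at 0.76, followed by Bdnf and Rasgrp1 at 0.59. Dusp1, Gadd45b and Sik1 were related at 0.27 to 0.52 in their 3 pairs. Between the patterns none of 18 pairs reached 0.3, their median was -0.05, and the lowest was Nrn1 with Dusp1 at -0.44. Per1 stood between them, with a rho of 0.46 with Homer1 and 0.42 with Sik1.

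For the 2 patterns much the same held among the 30 glutamatergic-marked LS cells, but not for Per1. There Per1 had a rho of 0.41 with Sik1, 0.38 with Dusp1, 0.25 with Homer1 and 0.03 with Gadd45b. With Bdnf, Inhba, Nrn1, Ptgs2 and Rasgrp1 its rho ran from -0.10 to -0.26. The first 15 pairs had a median of 0.37 and a range of 0.21 to 0.70, the 3 pairs of the second pattern ran from 0.33 to 0.67, and the median between the patterns was -0.12. Nrn1 and Rasgrp1 stayed at 0.70, and Sik1 and Dusp1 were at 0.67. All 45 pairs share the same cells and the same totals per cell, and no share over all gene pairs is set beside them. Some single cells carried several genes at once. LS_3 was the highest LS cell for Bdnf, Nrn1 and Ptgs2, and LS_34 for Homer1 and Per1.

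**Figure D5:**
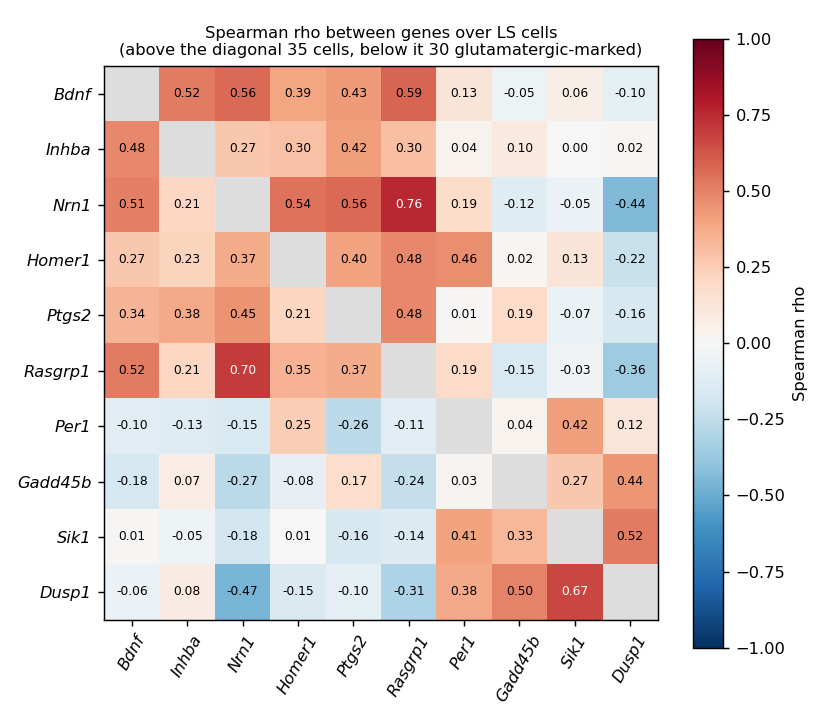
Spearman rho between each pair of genes, by colour and number, over 35 LS cells above the diagonal and over the 30 glutamatergic-marked LS cells below it. The red block at the upper left holds the 6 genes of the first pattern and the one at the lower right Sik1, Dusp1 and Gadd45b, with pale or blue squares between the blocks.

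The genes whose level was most like that of each member, again among 6122 genes, were as follows. Bdnf was most like Rgs7 (rho 0.75), Nptx2 (0.74) and Sorcs3 (0.72). Homer1 was most like Slc12a5 (0.76) and Gria2 (0.74), which encode a chloride transporter and an AMPA receptor subunit of neurons. Nrn1 was like Nptxr (0.84) and Gda (0.79), Rasgrp1 most like Nrn1 (0.76), Dlg3 (0.75) and Wasf1 (0.75), and Ptgs2 most like Fam19a5, Kcnv1 and Rasgef1a at 0.68 to 0.69. Sik1 was most like Tsc22d2 (0.70), Slc25a25 (0.68) and Klf6 (0.67), so that Klf6 was shared with Dusp1. Gadd45b was most like Arf6 (0.64), Vapa (0.60) and Gpx1 (0.60), and Per1 most like Med24 (0.68), Tmem175 (0.64) and Inpp4a (0.62). Inhba, with a read in 9 LS cells, was not ranked in this way.

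A list of immediate-early genes and one of other later-response genes give the setting. Of 19 immediate-early genes besides Fos, 16 had a higher mean in LS and 9 were at least 2-fold higher, with a median log2 ratio of 0.72. Of all genes 47.1% were higher in LS and 33.8% at least 2-fold higher, the shares to set beside both lists. The means were 758 against 327 FPKM for Egr1, 605 against 102 for Nr4a1 and 258 against 84.4 for Junb. Of 16 other later-response genes 13 were at least 2-fold higher in LS and 3 at least 2-fold lower, with a median of 2.30, which includes 2 genes at 0 in every NS cell. These were Dusp5 and Nfil3, at least 153-fold and 126-fold higher in LS against the floor of 3 reads over the group, and the 3 lower ones were Pcsk1, Dusp4 and Per2, all named after their values were seen. Plk2 had means of 140 and 27.9 FPKM, and Nptx2 of 101.5 and 7.06 FPKM.

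Both lists were also set against Fos within the LS cells. Of 18 immediate-early genes read in 25% or more of the LS cells, 12 had a rho of at least 0.3, with a median of 0.49, led by Fosb at 0.86, Ier2 at 0.80, Egr1 at 0.76 and Junb at 0.72. Of 14 other later-response genes 5 did, with a median of 0.06, led by Cdkn1a at 0.64, while Plk2 stood at -0.20 and Nptx2 at -0.06. Of all genes 8.79% did, with a median of -0.02. Dusp1, at 0.74, thus lay among the higher immediate-early values, and Bdnf, Inhba and Ptgs2 lay nearer to the median of the later-response list. That median was itself close to the one over all genes. The immediate-early values also reached down to -0.13, a range that holds Bdnf (0.07) and Inhba (0.04) but not Ptgs2 (-0.17). The differences between the lists were not tested.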

How the data were processed

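Single-neuron Smart-seq2 libraries of 46 LS and 17 NS cells, 1 library per cell, were analysed. The authors trimmed reads with AfterQC, aligned them to GRCm38 with STAR 2.5.3a, counted them per gene with featureCounts and deposited FPKM values made with scater, for protein-coding genes with at least 1 FPKM. All 63 columns were used, so the number of unused ones is 0. The 10 genes and all lists were chosen with earlier results of these data known.

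Cells of low cDNA concentration, taken as LS_1 and NS_1 from a plot of the study because its text names none, cells with under 1000 genes above 1 FPKM, with a mitochondrial share above 25%, or with a product of astrocyte, of oligodendrocyte, or of excitatory and inhibitory markers above 0 were left out, as the methods of the study state. That left fewer LS cells than the study kept. No cell exceeded the mitochondrial limit here, the highest share being 11.6%, whereas the study removed cells by it, so its filtering was not fully reproduced. The marker products also served against doublets.

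Whole reads per gene were recovered from the steps of FPKM within a cell. Exon lengths came from GENCODE M21 for 12178 genes and were solved from the values for 6317, among them Homer1, Inhba, Nrn1, Gadd45b, Sik1 and Dusp1. Over both sets of genes 99.99% of values under 200 reads were whole within 0.01 reads. The steps were tested on simulated data. Rows of 4 genes with repeated names were left out. Reads served for depth, thinning, Poisson intervals and floors. The receptor index is the mean FPKM of the receptor genes as a percentage of an even spread of reads over all exons.

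Ratios are of mean FPKM over cells, called at 2-fold. Correlations are Spearman rho of FPKM, called at 0.3, and Pearson r of log2(FPKM + 1). Intervals are at 95%. Named were the 10 genes, Fos, at most 8 genes of the activity lists by LS mean or rho, and the 3 nearest genes of each member read in at least 50% of LS cells. Some of these nearest genes are not reported here. Labels name no batch or mouse, so no batch could be examined. Alternatives were other cell sets, scales, depths, covariates and each cell left out in turn, and a further 4 were chosen after seeing the data: the cells of low cDNA kept, partial rho given astrocyte and endothelium markers, partial rho given excitatory markers, and the mean of 4 immediate-early genes in place of Fos. Promoter windows were those of RefSeq, and none was used for Nrn1 and Sik1. The work ran in Python 3.11.15 with scipy 1.17.1, pandas 2.3.3 and numpy 2.4.6.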

Additional observations from a re-analysis of the deposited data

How the results depend on the processing

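The median log2 ratio of the 10 genes stayed above 1 under every alternative run. It moved from 1.76 to 2.88 with means of log2(FPKM + 0.1), to 2.35 at 200000 reads per cell and to 4.0 with cells of a receptor index under 10%, where 3 NS cells remain and 5 genes enter at the floor of 3 reads. With each cell left out in turn it ran from 1.17 to 2.83, and the count of genes at least 2-fold higher from 6, without LS_3, to 8. With glutamatergic-marked cells only, the count of genes with a larger share in LS was 5, Homer1 and Nrn1 had no NS read, and Ptgs2 turned to a log2 ratio of -0.94. Gadd45b turned from -0.46 to 1.76 and 2.92 on the log2 scales with 1 and 0.1 added and to 4.41 with a receptor index under 10%. With LS_1 and NS_1 kept the median log2 ratio was 1.62 and 8 genes were at least 2-fold higher. The median rho with Fos moved from -0.01 to 0.17 in glutamatergic-marked LS cells, to 0.18 with 5 immediate-early genes in place of Fos and to 0.26 with 4 of them without Fos. The count of genes at 0.3 was 1 on linear FPKM and 4 with those 4 genes, and with each cell left out it ran from 2 to 3, the latter for instance without LS_39, where Sik1 stood at 0.32. Of the values of single genes, 49 log2 ratios moved by over 1.5 times and 53 did not, and 31 values of rho moved by over 0.15 and 139 did not. No paired analysis was possible because no test between the groups was made and the replicate number only names a cell. Depth limits the NS side most, since 4 of 12 NS cells held under 200000 reads.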
